A study of Mus musculus with 9 samples.

Results

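Forkhead (Fox) genes encode transcription factors that bind DNA through a shared winged-helix domain, and subfamilies are named by a letter. The members described here are the genes whose symbol is Fox followed by 1 letter and digits, with Foxm1 left out. The rule gave 40 of the 18094 genes in the count table, from Foxa to Foxs. RNA was sequenced from the uterus of 9 female mice aged 13 weeks, 3 in each of 3 groups. Control pups received the oral solvent alone on days 1 to 5 after birth. Tamoxifen pups received tamoxifen, a selective estrogen receptor modulator, in that solvent at 1 mg/kg on the same days, which is used to model adenomyosis, the growth of endometrium into the uterine muscle. Tamoxifen+primidone mice had the same neonatal tamoxifen and, from week 10, daily intraperitoneal injections of 2 mg/kg primidone, an anticonvulsant and blocker of the TRPM3 ion channel, over 3 weeks. Control and tamoxifen mice received vehicle over those weeks. The design has no group given primidone without tamoxifen. The labels used here give no strain, estrous stage, litter or record of lesions for single mice, and each library comes from a whole organ. In such bulk RNA, fewer cells of a type and less RNA per cell cannot be told apart.

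Forkhead factors work in distinct parts of the uterus. Foxa2 marks the gland epithelium and is needed for gland formation. Foxo factors are the nuclear targets of insulin, PI3K and AKT signalling: AKT phosphorylates them and they leave the nucleus, so their activity is set largely without a change in RNA. Foxo1 is known for its role in decidualization and in the epithelium at implantation. Foxl2, best known from ovarian granulosa cells, is also made in uterine stroma and takes part in uterine maturation. Foxc1 and Foxc2 act in mesenchyme and in blood and lymph vessels, Foxf1 and Foxf2 in mesenchyme that receives Hedgehog signals, and Foxj1 switches on the genes of motile cilia.

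Library totals ran from 36393120 to 39958443 counts, and the forkhead members took 0.0836% to 0.103% of them. All 12 markers of uterine tissue passed the filter on low counts, and their summed level was 7020 to 9170 CPM (counts scaled to a common library size) in control, 6060 to 6730 in tamoxifen and 5780 to 6420 in tamoxifen+primidone libraries. The largest part of this sum was Acta2, at 3470, 2410 and 3650 CPM in control libraries. It was at 1950, 1880 and 2390 in tamoxifen and 2390, 1960 and 2400 in tamoxifen+primidone libraries. Both drug groups lay below control for Acta2, without passing (adjusted p = 0.0998 and 0.114). Also of these markers, Myh11, the smooth muscle myosin, was at 1590 to 2220, 1180 to 1510 and 1150 to 1420 CPM. It was lower in tamoxifen+primidone than in control libraries (log2 fold change -0.69 ± 0.16, SE, adjusted p = 0.0357, passed in 5 of 9 fits with 1 library left out). Hand2, a stromal factor and the other uterine marker that passed, was higher in the same comparison, at 26.9, 30.9 and 26.4 CPM in control and 50.5, 43 and 43.7 CPM with both drugs (0.7 ± 0.1, adjusted p = 0.00777, 9 of 9 fits). The part of a shift in tissue makeup in the forkhead results was not tested. The scaling to CPM uses TMM factors, and CPM are used to compare a gene with itself. Levels of different genes are compared by FPKM, which also allows for gene length. Differences were tested with edgeR's quasi-likelihood test over 15186 genes, and a gene is said to have passed at an adjusted p under 0.05. Of 29 calls of list genes outside the family, 4 held in all 9 fits with 1 library left out (Pik3cb, Alb, Apoa1 and Hand2 for tamoxifen+primidone against control), and the number of those fits passed is given with each main gene.

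Promoter sequences are shown for Foxc1, which passed, and for Foxl2 and Foxo1, which did not. Promoters of members that moved were not compared with those of members that did not. The RefSeq promoter table (GRCm38.p6, another build than the authors' GRCm39) held 30 promoters of 25 members, each read here as the 250 bases before the start site. Capitals mark GGGCGG or its reverse complement CCGCCC, the core of the GC box bound by Sp1. Foxc1, shown because its RNA fell, is at chr13:31806396-31806645, plus strand. Foxl2, shown because its 3 tamoxifen+primidone libraries lay above all others, is at chr9:98955357-98955606, plus strand. Foxo1, shown as the member with the highest level, is at chr3:52268087-52268336, plus strand.
Foxc1: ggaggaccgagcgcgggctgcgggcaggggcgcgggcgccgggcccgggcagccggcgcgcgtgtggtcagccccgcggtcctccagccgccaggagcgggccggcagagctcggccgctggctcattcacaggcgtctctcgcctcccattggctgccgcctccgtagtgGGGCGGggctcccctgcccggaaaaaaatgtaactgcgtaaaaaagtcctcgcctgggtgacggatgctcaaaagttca
Foxl2: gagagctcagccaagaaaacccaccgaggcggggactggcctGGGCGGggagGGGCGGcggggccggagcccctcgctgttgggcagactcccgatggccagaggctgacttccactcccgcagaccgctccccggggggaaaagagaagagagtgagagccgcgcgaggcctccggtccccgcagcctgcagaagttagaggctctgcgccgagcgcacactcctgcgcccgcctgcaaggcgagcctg
Foxo1: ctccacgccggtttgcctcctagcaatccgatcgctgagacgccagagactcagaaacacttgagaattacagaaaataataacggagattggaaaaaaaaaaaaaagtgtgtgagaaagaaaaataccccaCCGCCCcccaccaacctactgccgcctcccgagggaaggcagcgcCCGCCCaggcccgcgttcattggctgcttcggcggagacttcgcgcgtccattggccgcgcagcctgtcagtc
The Foxc1 sequence had 70.8% G and C and 1 GC box, the Foxl2 sequence 70.8% and 2, and the Foxo1 sequence 56% and 2. Among the 30 member promoters, 21 (70%) held GGGCGG on either strand, against 42.6% of 21255 promoters of protein-coding genes cut to the same length. Their median content of G and C was 62.4%, against 55.6%, and their median ratio of observed to expected CpG was 0.711, against 0.53. The forkhead motif GTAAACA, on either strand, was in 1 of the 30 (3.33%), a Foxa1 promoter, against 2.62% of the protein-coding promoters. The E-box CACGTG was in 1 (3.33%), a Foxd3 promoter, against 6.63%. These are descriptions of letters in a short window, and several members have more than 1 promoter in the table.

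Of the 40 members, 26 had enough counts to be tested, and they held 99.96% of all member counts. The mean level over the 9 libraries was above 5 FPKM in 12 members and above 1 FPKM in 19. Foxo1 was at the top with 23.2 FPKM, followed by Foxo3 (18.6), Foxk1 (16.3), Foxl2 (15.9), Foxp4 (15.8), Foxk2 (12.6), Foxl3 (10.9), Foxo4 (10.7), Foxj2 (8.52) and Foxc1 (6.72). The first 4 of these held 41.8% of the summed forkhead FPKM and all 10 held 78.7%. Neighbours in the order often lay within each other's spread. In control libraries Foxk1 was at 17.4 ± 1.95 FPKM (SD, n = 3), Foxl3 at 16.5 ± 1.7, Foxp4 at 15.2 ± 0.544 and Foxl2 at 14.9 ± 0.913. Foxl3 stood lower in the order in both drug groups, at 7.37 ± 1.83 FPKM in tamoxifen and 8.91 ± 1.25 in tamoxifen+primidone libraries. In each of them its mean came just below that of Foxj2.

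**Figure D1:**
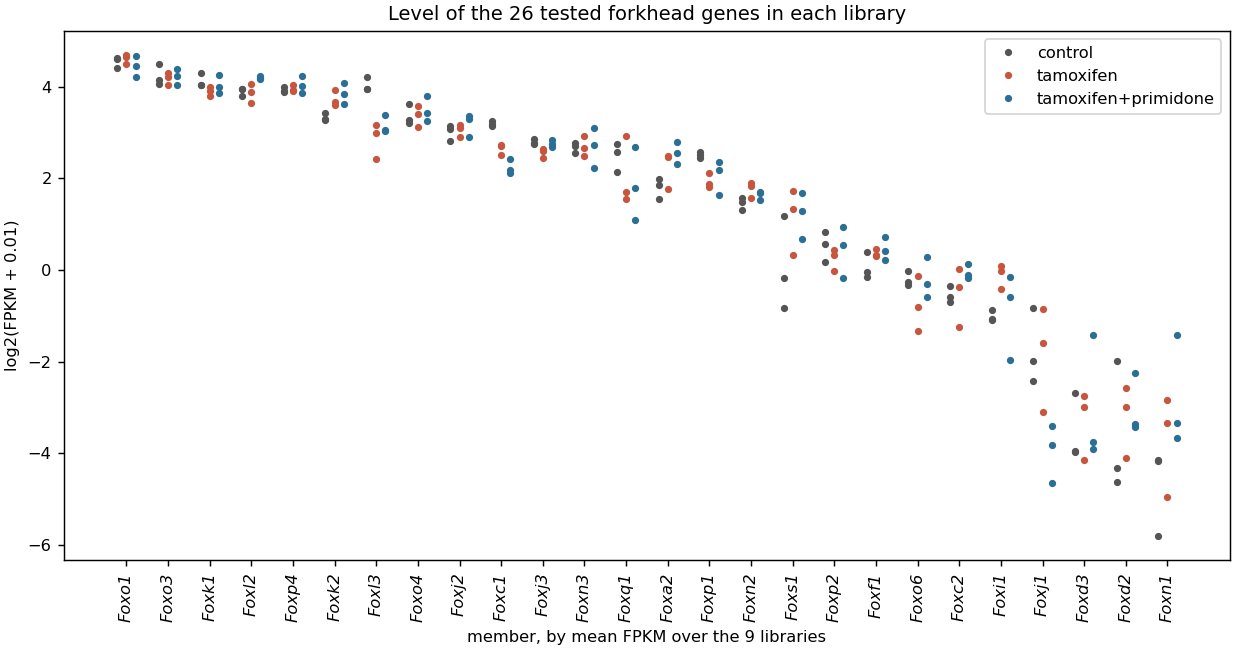
Level of each of the 26 tested members in each library, as log2(FPKM + 0.01), ordered by the mean FPKM; colours give the group. Mean levels fall from 23.2 FPKM for Foxo1 to 0.0961 FPKM for Foxn1, and Foxl3 and Foxc1 show control points above the others.

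The other 14 members never passed 20 counts in a library and were at 0 in 2 to 8 of the 9 libraries. They included Foxa1, Foxa3, Foxf2, Foxl1 and Foxp3. Since 3 counts correspond to 0.0755 to 0.0827 CPM here, nothing is said of changes in them. Foxp3, the defining factor of regulatory T cells, had 5, 3 and 0 counts in control, 5, 0 and 20 in tamoxifen and 1, 20 and 1 in tamoxifen+primidone libraries. Markers of those cells summed to 33 to 39.4, 31.9 to 39.6 and 31 to 35 CPM, most of it Ikzf2, which is not limited to them and was the 1 of 8 tested markers that passed (-0.61 ± 0.14 for tamoxifen+primidone against control, adjusted p = 0.0409, 2 of 9 fits with 1 library left out). In that comparison 6 of the 8 had a positive log2 difference, with a median of 0.83 over the list. Cd4, for example, was at 3.32, 2.86 and 2.4 CPM in control, 8.19, 3.94 and 6.9 in tamoxifen and 6.26, 5.6 and 4.8 in tamoxifen+primidone libraries. Cd4 did not pass in that comparison (adjusted p = 0.0742). The Foxp3 ranges of the 3 groups overlap.

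Neonatal tamoxifen was followed by lower Foxc1 and Foxl3 RNA in the adult uterus. Against control, 2 of the 26 tested members passed (7.69%), both lower and none higher. The background over all genes was 233 of 15186, or 1.53%, with 0.961% lower and 0.573% higher. At an unadjusted p under 0.05 there were 6 members of 26, against 17.8% of all genes. The ranges of the 3 libraries of each group did not overlap for 8 members (30.8%), against 26.1% of all genes. The median log2 fold change was 0.02 over the 26 members and 0 over all genes.

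Foxc1 was at 36.1, 36.4 and 39.4 CPM in the control libraries. It was at 23.1, 26.6 and 26.6 CPM in the tamoxifen libraries and at 20.2, 17.4 and 17.0 CPM in the tamoxifen+primidone libraries. No library of any group lay in the range of another group, and the order was control, tamoxifen, tamoxifen+primidone. Foxc1 fell 1.47-fold after tamoxifen (log2 fold change -0.55 ± 0.1, SE, 95% interval -0.78 to -0.32, adjusted p = 0.0329). With primidone added it was 2.05-fold lower than in control libraries (-1.03 ± 0.1, interval -1.26 to -0.8, adjusted p = 0.0018). Both comparisons use the same control libraries. The step from tamoxifen to tamoxifen+primidone did not pass (-0.48 ± 0.1, interval -0.71 to -0.25, unadjusted p = 0.000842, adjusted p = 0.116). DESeq2 gave that step an adjusted p of 0.00501, in a test that called 3.78% of all genes. The tamoxifen call was lost without any 1 of the 6 control or tamoxifen libraries (adjusted p 0.0647 to 0.129), while the log2 fold change stayed between -0.59 and -0.49. The tamoxifen+primidone call held in all 9 fits with 1 library left out (adjusted p 0.00193 to 0.014).

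Foxq1, Foxf2 and Foxc1 follow each other on chromosome 13 with 0 protein-coding genes between them in the RefSeq gene order. Foxq1, a factor of epithelia, was at 12.6, 19.0 and 17.2 CPM in control, 9.40, 21.4 and 8.38 in tamoxifen and 9.15, 17.3 and 5.81 in tamoxifen+primidone libraries. Its groups overlap and the second library of each drug group is within or above the control range. It did not pass against control (-0.31 ± 0.45 and -0.6 ± 0.45, adjusted p = 0.771 and 0.47). Foxf2 was among the untested members, with at most 6 counts in a library. The paralog Foxc2, a factor of lymph vessels, was near 2 CPM. Its group means were 1.89 ± 0.259, 2.0 ± 0.794 and 2.52 ± 0.289 CPM (SD, n = 3). The tamoxifen+primidone libraries lay above the control libraries for Foxc2, and its adjusted p was 0.497 or more in all 3 comparisons. Markers of endothelium and lymphatics summed to 510 to 596, 483 to 559 and 497 to 576 CPM in the 3 groups, and 0 of the 11 passed in any comparison.

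Foxl3 is given as the count table names it. The symbol is in neither the RefSeq nor the GENCODE table used here, so its identity and the genes that overlap or neighbour it were not examined. Foxl3 was at 14.1, 13.8 and 16.9 CPM in control libraries. It was at 4.85, 7.92 and 7.11 CPM in tamoxifen and at 8.74, 7.04 and 7.07 CPM in tamoxifen+primidone libraries. All 6 libraries of the drug groups lay below all 3 control libraries, and the drug groups overlap. Foxl3 fell 2.25-fold after tamoxifen (log2 fold change -1.17 ± 0.2, interval -1.61 to -0.73, adjusted p = 0.024) and was 1.96-fold lower than control with primidone added (-0.97 ± 0.2, interval -1.41 to -0.53, adjusted p = 0.0245). Between the drug groups the difference was 0.2 ± 0.2 (interval -0.24 to 0.64, adjusted p = 0.713). The tamoxifen call was lost without any 1 control library or without tamoxifen library 1 or 3 (adjusted p 0.0582 to 0.104). The tamoxifen+primidone call was lost without any 1 control library or without tamoxifen+primidone library 2 or 3 (0.0531 to 0.0921).

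Foxl2 had 39.7, 38.9 and 35.8 CPM in control, 32.1, 37.5 and 42.5 in tamoxifen and 44.9, 43.5 and 44.8 in tamoxifen+primidone libraries. The tamoxifen libraries spread around the control range, and the tamoxifen+primidone libraries lay close together above both other groups. Foxl2 did not pass in any comparison. The difference was -0.03 ± 0.1 for tamoxifen against control (interval -0.26 to 0.2, adjusted p = 0.923), 0.25 ± 0.1 for tamoxifen+primidone against tamoxifen (0.02 to 0.48, 0.329) and 0.22 ± 0.1 against control (-0.01 to 0.45, 0.238). Markers of ovary and oviduct, which also use Foxl2 and Foxj1, summed to 18.2 to 47.6, 67.4 to 273 and 6.59 to 10.4 CPM, and 0 of the 4 tested passed in any comparison. Ovgp1, the oviduct glycoprotein, made up most of the sum in the tamoxifen libraries, and Star, a protein of steroid hormone synthesis, was its largest part in control libraries 1 and 3 and in all tamoxifen+primidone libraries. Star was at 14.6, 9.21 and 24.7 CPM in control, 4.08, 1.54 and 6.34 in tamoxifen and 5.35, 3.12 and 7.45 in tamoxifen+primidone libraries. The egg gene Zp3 was at 0 to 0.0276 CPM and the granulosa hormone Amh at 0 to 0.27 CPM. The tamoxifen+primidone libraries, which were highest in Foxl2, were lowest in this sum, but single markers differed. Inha, another marker on this list, was at 1.67, 0.857 and 1.05 CPM in control and 2.3, 1.65 and 1.53 with both drugs. The tamoxifen libraries had 1.26, 2.59 and 1.41 CPM of Inha. Of the 4 tested markers, 3 had a positive log2 difference between the drug groups and 1 for tamoxifen+primidone against control. The medians were 0.24 and -1.1. The part of ovary and oviduct tissue in the Foxl2 values was not tested.

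**Figure D2:**
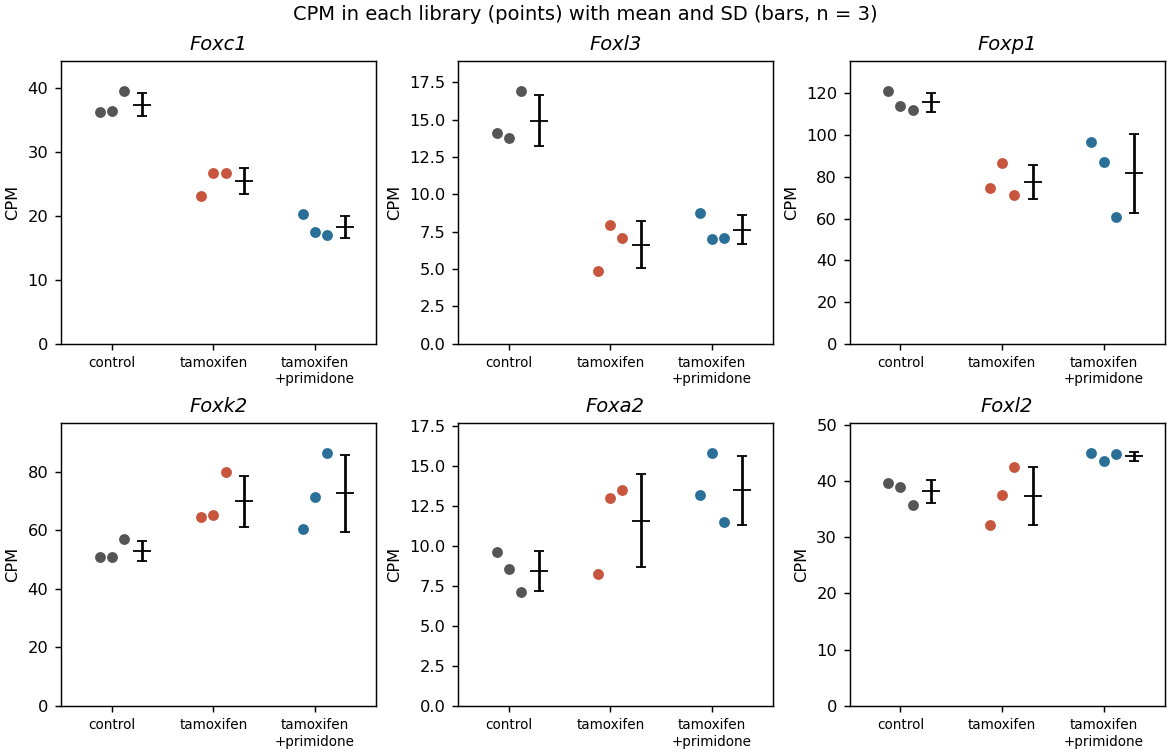
CPM of 6 members in each library (points) with the group mean and SD (bars, n = 3). Foxc1 steps down over the 3 groups from 37.3 to 25.4 to 18.2 CPM, Foxl3 is lower in both drug groups, and Foxp1, Foxk2, Foxa2 and Foxl2 did not pass the test.

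Foxp1 and its paralogs are repressors that act in lung, heart and lymphocyte development. Foxp1 was at 121, 114 and 112 CPM in control, 74.7, 86.7 and 71.2 in tamoxifen and 96.9, 87.3 and 60.7 in tamoxifen+primidone libraries. The control libraries were above all 6 others, and the drug groups overlap. The difference from control was -0.58 ± 0.15 with tamoxifen (interval -0.92 to -0.24, adjusted p = 0.0939) and -0.5 ± 0.15 with primidone added (-0.84 to -0.16, adjusted p = 0.0854), and neither passed. DESeq2 gave adjusted p of 0.0142 and 0.0275, in tests that called 7.11% and 12% of all genes. Foxp1 lies over several noncoding genes in RefSeq, and no strand setting of the counting was available in the labels. Foxp4 was at 63.9, 59.8 and 60.0 CPM in control, 66.6, 59.6 and 61.7 in tamoxifen and 60.8, 72.3 and 56.7 in tamoxifen+primidone libraries. Its groups overlap, with log2 differences from control of 0.03 (interval -0.18 to 0.25) and 0.05 (-0.17 to 0.27). Foxp2 was at 10.4 ± 2.14, 8.51 ± 1.36 and 9.62 ± 3.41 CPM (SD, n = 3) and did not pass.

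Foxk1 and Foxk2 repress genes of autophagy and bind many of the sites that Foxo factors use. Foxk2 was at 51.0, 50.8 and 56.9 CPM in control, 64.5, 65.3 and 79.8 in tamoxifen and 60.3, 71.3 and 86.3 in tamoxifen+primidone libraries. All 6 libraries of the drug groups were above the control libraries. The difference was 0.4 ± 0.13 with tamoxifen (interval 0.1 to 0.7, adjusted p = 0.156) and 0.46 ± 0.13 with primidone added (0.16 to 0.75, adjusted p = 0.0747), so neither passed. DESeq2 gave the second an adjusted p of 0.0261, and limma on log2(FPKM + 1) 0.0469. These tests called 12% and 7.56% of all genes. Foxk1 was at 124, 147 and 125 CPM in control, 106, 119 and 114 in tamoxifen and 136, 115 and 107 in tamoxifen+primidone libraries. The tamoxifen libraries lay below the control libraries and tamoxifen+primidone libraries 2 and 3 also lay below them, while library 1 was in their range. Its differences from control were -0.23 ± 0.11 and -0.15 ± 0.11 (adjusted p = 0.294 and 0.437).

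The Foxo genes did not pass in any comparison. Foxo1 was at 138, 118 and 141 CPM in control, 129, 143 and 141 in tamoxifen and 116, 135 and 101 in tamoxifen+primidone libraries. Foxo3, a brake on cell growth and survival, was at 123, 153 and 117 CPM in control, 129, 133 and 113 in tamoxifen and 136, 122 and 110 in tamoxifen+primidone libraries. Foxo4 was at 49.8, 62.1 and 47.9 CPM in control, 54.5, 60.7 and 44.8 in tamoxifen and 66.1, 52.7 and 47.4 in tamoxifen+primidone libraries. The groups overlap for each of the 3 genes, with the lowest Foxo1 value in a tamoxifen+primidone library. Foxo6, the member that stays in the nucleus more than the others, was at 2.27, 2.11 and 2.70 CPM in control, 1.54, 1.05 and 2.45 in tamoxifen and 2.04, 3.12 and 1.74 in tamoxifen+primidone libraries, and its groups also overlap. Foxo3 and Foxo6 overlap noncoding genes in RefSeq.

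The intervals limit how far Foxo RNA could have moved. For tamoxifen against control the log2 difference was 0.06 for Foxo1 (interval -0.2 to 0.31), -0.07 for Foxo3 (-0.33 to 0.2) and 0 for Foxo4 (-0.34 to 0.35). Tamoxifen+primidone against tamoxifen gave -0.23 for Foxo1 (-0.48 to 0.02), -0.03 for Foxo3 (-0.29 to 0.24) and 0.06 for Foxo4 (-0.29 to 0.4). Against control, tamoxifen+primidone gave -0.17 (-0.43 to 0.08), -0.09 (-0.36 to 0.17) and 0.06 (-0.29 to 0.41) in the same order. Foxo6 had wide intervals, from -1.31 to 0.33 for tamoxifen against control and from -0.37 to 1.27 for primidone added to tamoxifen. Adjusted p for the 4 genes was 0.4 or more throughout.

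**Figure D3:**
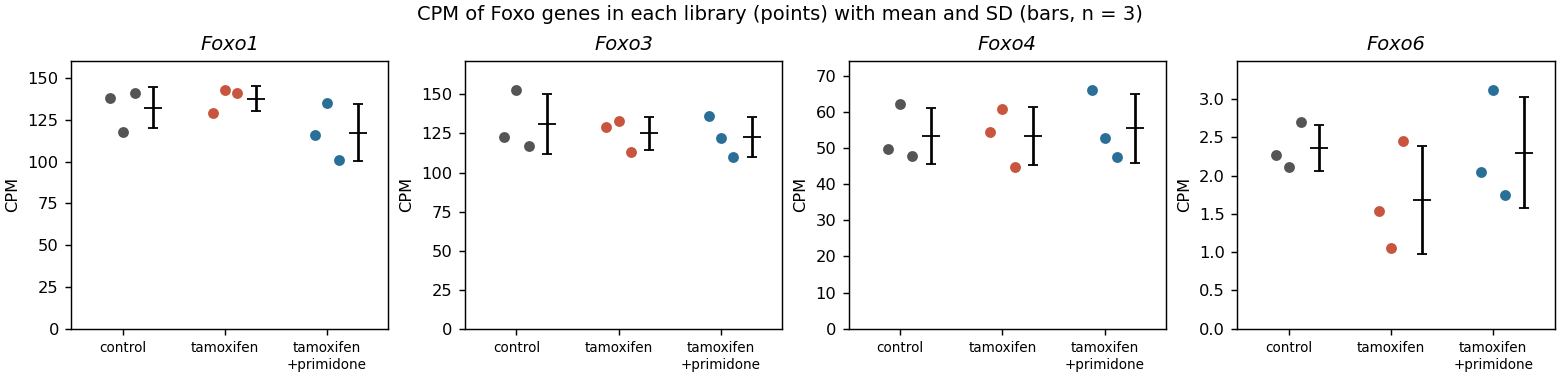
CPM of the 4 tested Foxo genes in each library (points) with the group mean and SD (bars, n = 3). The groups overlap for each gene; Foxo1 means are 132, 138 and 117 CPM in control, tamoxifen and tamoxifen+primidone libraries.

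Of 24 genes that act between insulin signalling and Foxo, Pik3cb, a catalytic subunit of PI3K, was the 1 that passed for tamoxifen against control. Pik3cb was at 61.3, 59.5 and 59 CPM in control, 40.2, 47.4 and 45.5 in tamoxifen and 34.3, 37.4 and 33.8 in tamoxifen+primidone libraries, with no overlap between the groups. It fell by 0.43 ± 0.09 on the log2 scale after tamoxifen (adjusted p = 0.0411), and the difference from control was -0.77 ± 0.09 with primidone added (adjusted p = 0.00357). The tamoxifen call was lost without any 1 of the control or tamoxifen libraries (adjusted p 0.0647 to 0.144), and the other held in 9 of 9 such fits. Akt2, a kinase that phosphorylates Foxo factors, was at 96.7, 93.8 and 92.1 CPM in control, 105, 101 and 109 in tamoxifen and 116, 123 and 110 in tamoxifen+primidone libraries. Akt2 rose by 0.31 ± 0.07 in tamoxifen+primidone against control (adjusted p = 0.042), and passed in 2 of 9 fits with 1 library left out. None of the 24 passed between the drug groups, where the median over them was 0.03. Against control the medians were 0.02 and 0.03.

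Of 30 genes known as Foxo targets in other tissues, 29 were tested and 0 passed by edgeR for tamoxifen against control or between the drug groups. For tamoxifen+primidone against control 2 rose and 0 fell. Klf2, a factor of endothelium and lymphocytes, rose by 0.58 ± 0.11 (adjusted p = 0.02), from 42.8, 36.8 and 33.4 CPM in control to 57.9, 54.6 and 56.4 CPM. Its tamoxifen libraries, at 46.3, 49.9 and 56.7 CPM, also lay above control. Klf2 passed in 7 of 9 fits with 1 library left out. Cdkn1a, the cell cycle inhibitor p21, was at 38.8, 38.4 and 33.1 CPM in control, 49.1, 49.1 and 48.2 in tamoxifen and 33.6, 28.3 and 27.8 in tamoxifen+primidone libraries. The tamoxifen libraries were above both other groups, yet Cdkn1a did not pass in either comparison (0.41 ± 0.1, adjusted p = 0.0758, and -0.71 ± 0.1 between the drug groups, adjusted p = 0.0518). The joint F test over the 3 groups passed for Cdkn1a (adjusted p = 0.0167). The median over the 29 was 0.06, 0 and 0.07 in the 3 comparisons.

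Foxa2, the factor of uterine glands, was at 9.62, 8.54 and 7.15 CPM in control, 8.22, 13.0 and 13.5 in tamoxifen and 13.2, 15.8 and 11.5 in tamoxifen+primidone libraries. Of the tamoxifen libraries 1 lay within the control range, and all 3 tamoxifen+primidone libraries lay above it. Foxa2 did not pass. The difference from control was 0.46 ± 0.21 with tamoxifen (interval -0.02 to 0.93, adjusted p = 0.297) and 0.68 ± 0.21 with primidone added (0.21 to 1.15, adjusted p = 0.0902). DESeq2 gave the second an adjusted p of 0.0286, in a test that called 12% of all genes. Between the drug groups it was 0.22 ± 0.21 (interval -0.25 to 0.69, adjusted p = 0.701). The paralogs Foxa1 and Foxa3 had at most 8 counts in a library.

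Of 11 genes upstream of Foxa2 and in gland formation, all tested, 0 passed by edgeR for tamoxifen against control or between the drug groups, and 2 fell in tamoxifen+primidone against control. Tcf7l2, a mediator of Wnt signals, fell from 18.2, 22.7 and 17.7 to 14.8, 13.3 and 13.1 CPM (-0.51 ± 0.13, adjusted p = 0.0468). Its tamoxifen libraries, at 15.5, 15.8 and 17.2 CPM, also lay below control. With 1 library left out Tcf7l2 passed in 0 of 9 fits. Of 10 gland genes 7 were tested. Ttr, a carrier of thyroid hormone and also a hepatocyte marker, rose in both drug groups (1.65 ± 0.33, adjusted p = 0.0411, and 1.91 ± 0.33, adjusted p = 0.0137), and Aldh1a1, a retinoic acid enzyme, fell with primidone added (-1.2 ± 0.29, adjusted p = 0.0485). Ttr passed in 4 and 8, and Aldh1a1 in 3, of 9 fits with 1 library left out. The summed level of the gland list was 171 to 178, 142 to 178 and 125 to 162 CPM in the 3 groups. Most of it was Sox17, at 87.2 to 136 CPM. Cxcl15, Spink1, Prss29 and Wfdc3 reached at most 1.4, 0.0276, 0.565 and 0.732 CPM in a library.

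Markers of hepatocytes, cells that also use Foxa factors, were examined beside Foxa2. All 10 were tested, and their summed level was 51.9 to 64.6 CPM in control, 88.8 to 175 in tamoxifen and 175 to 192 in tamoxifen+primidone libraries. For tamoxifen against control 3 rose (Alb, Apoa1 and Ttr), and for tamoxifen+primidone against control 7 rose, with Alb at 30.7 to 32.3 CPM in control and 93.5 to 95.8 CPM with both drugs. With 1 library left out, the tamoxifen calls passed in 6 of 9 fits for Alb and in 4 each for Apoa1 and Ttr. With both drugs Alb and Apoa1 passed in 9 of 9, Ttr in 8 and the others in 2 to 7. The part of these genes in the Foxa2 values was not tested. Mesothelium markers summed to 1000 to 1070, 1020 to 1290 and 869 to 1060 CPM in the 3 groups, and most of this was the keratin Krt19. Msln rose after tamoxifen (passed in 4 of 9 fits with 1 library left out), and Msln (2 of 9), Lrrn4 (4 of 9) and Wt1 (4 of 9) rose with both drugs, where 5 of the 6 markers had a positive log2 difference and the median was 1.62. Stratified squamous markers, of which Krt6b rose after tamoxifen (passed in 3 of 9 fits with 1 library left out, and not with the replicate block, adjusted p = 0.0559), summed to 20 to 70.7, 54.3 to 146 and 64.4 to 87.7 CPM.

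Foxj1, the switch of motile cilia, was a low member. It had 18, 53 and 24 counts in control, 33, 10 and 56 in tamoxifen and 8, 6 and 3 in tamoxifen+primidone libraries, which is 0.47, 1.42 and 0.648 CPM, then 0.847, 0.276 and 1.43 CPM, then 0.207, 0.152 and 0.0755 CPM. All 3 tamoxifen+primidone libraries were below all 6 others, while control and tamoxifen libraries overlap. The difference was -2.54 ± 0.75 from tamoxifen (interval -4.19 to -0.88, adjusted p = 0.193) and -2.52 ± 0.75 from control (-4.18 to -0.86, adjusted p = 0.0773), and neither passed. DESeq2 gave adjusted p of 0.036 and 0.015, in tests that called 3.78% and 12% of all genes. At these counts the fold is rough.

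The oviduct gene Ovgp1 was at 1.18, 36.5 and 13.4 CPM in control, 267, 61.9 and 124 in tamoxifen and 0.982, 0.684 and 0.906 in tamoxifen+primidone libraries, and was, like Foxj1, lowest in all 3 of the last. Its part in the Foxj1 values was not tested. Of 18 markers of multiciliated cells 9 were tested, and the defining regulators Mcidas and Ccno were at 0 to 0.138 and 0 to 0.523 CPM. The summed level of the list was 111 to 126, 167 to 224 and 144 to 212 CPM, and was mostly Tppp3, a tubulin binding protein. Tppp3 was at 85.9, 76.0 and 91.2 CPM in control, 144, 194 and 134 in tamoxifen and 162, 178 and 110 in tamoxifen+primidone libraries. It was the 1 list member that passed, for tamoxifen+primidone against control (0.83 ± 0.19, adjusted p = 0.0401, passed in 3 of 9 fits with 1 library left out). Its tamoxifen libraries also lay above control, without passing. Dnah5 and Rfx2 were highest with both drugs. Dnah5 was at 0.601, 1.39 and 1.05 CPM in control, 1.21, 1.54 and 1.1 in tamoxifen and 3.08, 2.53 and 2.19 with both. Rfx2 was at 13.4, 12.4 and 12, then 11.5, 10.6 and 13.5, then 21, 16.1 and 15.2 CPM. The list's median log2 difference was -0.32 for tamoxifen against control, 0.21 between the drug groups and -0.22 for tamoxifen+primidone against control. Between the drug groups 5 of the 9 were positive and 4 negative. Foxj1 was lowest with both drugs, while its control and tamoxifen libraries overlap.

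The relatives Foxj2 and Foxj3, broadly made and not tied to cilia, did not pass. Foxj2 was at 45.1, 42.6 and 36.2 CPM in control, 38.2, 45.0 and 43.9 in tamoxifen and 47.1, 49.3 and 36.5 in tamoxifen+primidone libraries, with overlap of all groups. Foxj3 was at 44.0, 46.4 and 45.3 CPM in control, 36.0, 40.3 and 39.6 in tamoxifen and 43.8, 41.8 and 40.4 in tamoxifen+primidone libraries. The tamoxifen libraries were the lowest 3 for Foxj3 (-0.23 ± 0.08, adjusted p = 0.17). Foxn2 was at 26.3, 27.4 and 23.5 CPM in control, 27.9, 34.3 and 33.4 in tamoxifen and 25.2, 28.5 and 29.2 in tamoxifen+primidone libraries. Its tamoxifen libraries lay above control (0.31 ± 0.11, adjusted p = 0.183). Foxn3, a repressor tied to the DNA damage checkpoint, was at 57.4 ± 3.63, 58.1 ± 8.47 and 56.2 ± 15.5 CPM (SD, n = 3), and other genes overlap it in RefSeq.

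Foxf1, the mesenchymal target of Hedgehog signals, was at 2.59 ± 0.567, 3.15 ± 0.19 and 3.21 ± 0.623 CPM (SD, n = 3) in control, tamoxifen and tamoxifen+primidone libraries. Its difference from control was 0.29 ± 0.26 and 0.31 ± 0.26 (adjusted p = 0.607 and 0.501). Of 13 genes of the Hedgehog route to Foxf, 12 were tested, and Smo, the signal transducer, was the 1 that passed, higher in tamoxifen+primidone than in control libraries (0.31 ± 0.07, adjusted p = 0.0388). Smo passed in 1 of 9 fits with 1 library left out. Smo was at 123, 122 and 116 CPM in control, 130, 118 and 130 in tamoxifen and 147, 152 and 147 in tamoxifen+primidone libraries. Gli1, a target that reads out the pathway, was at 9.15, 11.9 and 8.9, then 6.5, 9.65 and 9.41, then 29.8, 9.09 and 19.2 CPM, and did not pass. The list's median was -0.2, 0.26 and 0.27 in the 3 comparisons, against 0, 0.02 and 0.01 for all genes.

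Low members showed wide spread. Foxs1, which marks pericytes, had 0.723 to 3.05 CPM in control, 1.63 to 4.42 in tamoxifen and 1.99 to 4.05 in tamoxifen+primidone libraries, with overlap and adjusted p of 0.359 or more. Pericyte markers summed to 375 to 447, 459 to 495 and 383 to 446 CPM, and Rgs5 was the 1 of 7 that passed, lower with both drugs than in control libraries (-0.39 ± 0.09, adjusted p = 0.0409, 2 of 9 fits with 1 library left out). Foxi1, a factor of ion transporting cells, was at 1.1, 1.26 and 1.13 CPM in control, 1.8, 2.32 and 2.5 in tamoxifen and 1.99, 0.557 and 1.51 in tamoxifen+primidone libraries. The tamoxifen libraries lay above the control libraries, but Foxi1 did not pass (0.92 ± 0.43, adjusted p = 0.299). Foxn1, the thymus and hair factor, had 6, 1 and 6 counts in control and 12, 16 and 3 in tamoxifen libraries. It had 11, 47 and 9 in tamoxifen+primidone libraries, so its highest count came from 1 library of that group. All 3 of these libraries lay above control, but Foxn1 did not pass (adjusted p = 0.179). Foxd2 and Foxd3 had at most 25 and 33 counts in a library, and the ranges of the groups overlap.

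Adding primidone to tamoxifen moved no member past the threshold. For tamoxifen+primidone against tamoxifen, 0 of the 26 passed by edgeR, against 2 of 15186 genes (0.0132%). At an unadjusted p under 0.05 there were 3 members, Foxc1, Foxj1 and Foxl2, or 11.5%, against 13.8% of all genes. DESeq2 called 2, Foxc1 and Foxj1, both lower, in a test that called 3.78% of genes, and limma on log2 FPKM called 0. The library ranges did not overlap for 4 members (15.4%), against 16.6% of all genes. Foxj3 and Foxl2 were higher (2 members, against 8.08% of genes) and Foxc1 and Foxj1 lower (2, against 8.55%). The median was 0.06 over the members and 0.02 over all genes.

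With both drugs, the members that differed from control were Foxc1 and Foxl3. For tamoxifen+primidone against control, 2 of the 26 passed (7.69%), both lower, against 812 genes (5.35%), of which 325 were higher (2.14%) and 487 lower (3.21%). Under upper-quartile scaling the split over all genes was 431 higher and 400 lower, and limma gave 674 higher and 337 lower on log2(FPKM + 1) and 664 and 318 on log2(FPKM + 0.1). At an unadjusted p under 0.05 there were 7 members (26.9%), against 23.2% of all genes. Ranges did not overlap for 10 members (38.5%), against 29.1% of all genes. Of the tested members 5 (19.2%) were higher, against 14.1% of genes, and 5 (19.2%) lower, against 15.1%. The median was 0.05 over the members and 0.01 over all genes. A joint F test over the 3 groups passed for Foxc1 (adjusted p = 0.00387) and Foxl3 (0.0231), against 3.84% of all genes.

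**Figure D4:**
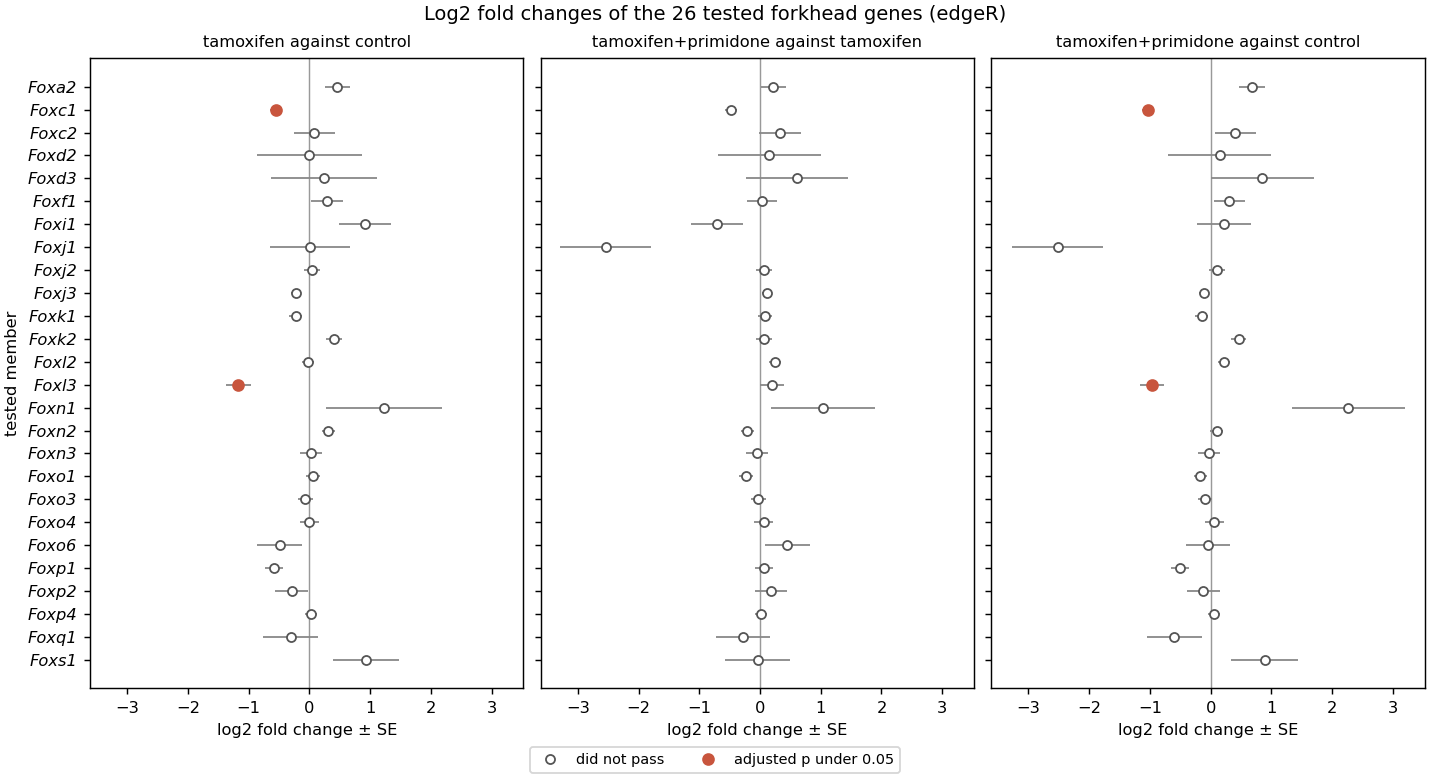
Log2 fold change ± SE of the 26 tested members in the 3 comparisons, from edgeR; filled points passed at an adjusted p under 0.05. Foxc1 and Foxl3 are the filled points, both left of 0 in the comparisons with control, and the middle panel has none.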

How the data were processed

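The members, gene lists, tests and named genes were chosen with earlier results of these data known. Per the labels' protocols, total RNA was extracted with TRIzol and had an integrity number above 7. The submitters' processing notes name HISAT2, HTSeq, R 3.2.0, DESeq2 and GRCm39. The annotation and strand setting: not given in the sources used here. Read counts for 18094 genes were deposited by the authors as whole numbers without normalization, beside FPKM values that the authors scaled for library size and gene length. Without strand, reads of overlapping genes cannot be told apart, and 8 of the 26 tested members overlap another gene in RefSeq.

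All 9 libraries, grouped by their labels, entered 1 fit in edgeR 4.0.16 under R 4.3.3 (quasi-likelihood, TMM, default low-count filter by group, robust, a coefficient per group). The two-sided p-values were adjusted by Benjamini-Hochberg across the 15186 genes that passed the filter. The standard error is the absolute log2 fold change over the square root of F, and intervals are 95%. Nothing in the labels states separate litters, so p-values measure the spread between these libraries. Replicate pairs differed beyond counting noise (chi-square per degree of freedom 20.24 to 81.35). The procedure was run on simulated counts with planted changes larger than that of Foxc1 after tamoxifen. These counts had no litters or pairing, so the simulation says nothing of smaller changes or of such structure. Alternatives were DESeq2 1.42.0, RLE and upper-quartile scaling, no low-count filter, limma 3.58.1 on log2(FPKM + 1) and log2(FPKM + 0.1) with at least 0.5 FPKM in 3 libraries, the 2 compared groups alone, a replicate block, and each library left out.

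Members named in full were Foxa2, Foxc1, Foxl2, the tested Foxo genes, any that passed, the 10 highest by mean FPKM and the 5 with the smallest p in each comparison. From each list, up to 4 genes that passed were named. Other genes were chosen after their values were seen. Some members and list genes that enter the counts are not reported here by name.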

Additional observations from a re-analysis of the deposited data

How the results depend on the processing

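Foxc1 and Foxl3 kept their direction against control in every alternative run, and no tested member reversed a called direction. Over the 26 tested members, 584 results under other settings were on the same side of the threshold and 12 newly passed it. With 1 library left out, 684 were on the same side, 2 newly passed and 16 no longer passed. Most results on the same side were of members that passed in neither fit. The losses were all among the calls of Foxc1 and Foxl3. These passed in 3 and 4 of 9 such fits for tamoxifen against control, and in 9 and 4 of 9 for tamoxifen+primidone against control. Calls of list genes kept their direction. Under other settings 206 of their results still passed and 22 did not. With 1 library left out 130 still passed and 131 did not. The cause of each shift below was not tested, beyond the fewer libraries in the fits that leave 1 out.

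Members that passed for tamoxifen+primidone against tamoxifen were 2 by DESeq2 (Foxc1 and Foxj1), which called 3.78% of all genes. For tamoxifen+primidone against control they were 6 by DESeq2 (Foxa2, Foxc1, Foxj1, Foxk2, Foxl3 and Foxp1), which called 12% of all genes. With the replicate block they were 4 (Foxk2, adjusted p = 0.0251, and Foxp1, 0.0425, beside Foxc1 and Foxl3), in a fit that called 6.48% of all genes. Foxp1 passed for tamoxifen against control by DESeq2 (adjusted p = 0.0142), with the 2 groups alone (0.0155) and without tamoxifen+primidone library 3 (0.0267). Those fits called 7.11%, 3.67% and 1.8% of all genes. With 1 library left out the count of members ranged from 0 to 3 for tamoxifen against control and from 1 to 3 for tamoxifen+primidone against control.

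Over all genes, tamoxifen against control gave 1112 by DESeq2 and 546 with the 2 groups alone, and 22 to 439 with 1 library left out. Tamoxifen+primidone against tamoxifen gave 578 by DESeq2, 9 with RLE scaling, 21 with no low-count filter, 1 by limma with either pseudocount, 53 with the replicate block and 0 to 85 with 1 library left out. Tamoxifen+primidone against control gave 1882 by DESeq2 and 122 to 800 with 1 library left out.

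The correlation of deviations from the group means was -0.13 to 0.18 over 9 pairs with the same replicate number and -0.29 to 0.16 over 18 with different numbers. It was over 0.1 in 3 of the 9 and 3 of the 18. With the replicate block, calls over all genes went from 233 to 317, from 2 to 53 and from 812 to 984 in the 3 comparisons. With so few libraries a group, these values cannot decide whether replicate numbers pair the libraries. Each group has 3 libraries, and the 14 untested members are at or near the limit of detection.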
